A study of Mus musculus with 3 samples.

Results

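The 7 genes described here are H2-Q4, H2-Q6, H2-Q7, H2-T22, H2-T23, H2-T24 and H2-M3, non-classical major histocompatibility complex (MHC) class I genes of the mouse H2 region. They were chosen by symbol and are 7 of 55536 annotated genes and of 22028 protein-coding genes in the gene tables. RNA of the chromatin fraction, which holds nascent and nuclear-retained transcripts, was sequenced after ribosomal RNA depletion from bone-marrow-derived macrophages of the C57BL/6J strain, primary cells grown from bone marrow. The cells were first given Lipid A, the TLR4-activating part of bacterial lipopolysaccharide, at 100 ng/ml for 12 h, then kept without it for 12 h, and were taken at minute 0 of the renewed exposure. There is 1 group of 3 libraries, called biological replicates 1 to 3, and no untreated control, so the values describe this state alone and no response to Lipid A can be read from them. All libraries carry 1 donor identifier, the labels give no age and do not tie the cultures to separate animals, so p-values measure only the spread between these libraries, which may be technical.

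Class I molecules consist of a heavy chain, encoded by the H2 genes, and the light chain beta-2-microglobulin. The classical heavy chains H2-K and H2-D present peptides from inside the cell to CD8 T cells. The non-classical heavy chains are less polymorphic and serve more specialised receptors, on natural killer cells, gamma delta T cells and innate-like T cells. Many class I promoters carry a kappa-B element (enhancer A), an interferon response element and an SXY module bound by the RFX complex and NLRC5, and macrophages raise class I expression after interferon.

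Expected counts, which are estimated reads per gene, summed to 11958978, 17283529 and 19475027 in replicates 1, 2 and 3, from 1000, 250 and 500 ng of starting RNA. TPM, a length-scaled abundance that sums to 1000000 in each library, is the unit of the levels. Each of 10 macrophage markers examined reached 1 TPM in all 3 libraries. The 9 fibroblast and stromal markers summed to 0.14, 1.79 and 584 TPM in replicates 1, 2 and 3, so replicate 3 stood apart, with Col1a1 at 149 TPM. The 4 B cell markers summed to 0.16 to 0.3 TPM and the 5 neutrophil markers to 0.17 to 0.59 TPM. The 7 T and NK cell markers summed to 1.33 to 2.62 TPM, mostly from Cd5 at 1.26, 2.12 and 1.87 TPM. Of these, Cd3e, Cd3g and Zap70 were listed at 0 in all 3 libraries. The 4 dendritic cell markers summed to 5.91 to 9.59 TPM, mostly from Batf3 at 4.41, 8.11 and 4.26 TPM, with Cd209a at 0. The 4 endothelial markers summed to 4.77 to 11.7 TPM, mostly from Kdr at 9.9, 3.17 and 5.11 TPM, with Tie1 at 0. In bulk RNA, fewer cells of a type and less RNA per cell cannot be told apart.

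All 7 genes were present at 10 TPM or more in each library, and 27.2% of protein-coding genes averaged 10 TPM or more. The 7 were chosen with earlier results of these data known, so that contrast is a description and not a test. It does not extend to the class, since 2 of 18 other non-classical H2 genes averaged 10 TPM or more. Their order by mean TPM was H2-Q4, H2-T23, H2-T22, H2-T24, H2-Q7, H2-Q6 and H2-M3. H2-Q4, H2-T23, H2-T22 and H2-T24 averaged 100 TPM or more, a level that 2.57% of protein-coding genes reached. Within a library the 7 genes lay between the 84.8th and the 99.1st percentile of protein-coding genes.

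H2-Q4 (ENSMUSG00000035929.11, chr17:35379617-35385290 of mm10, plus strand) is a class I heavy chain gene of the Q region. It had 187, 180.4 and 178 TPM in replicates 1, 2 and 3, a mean of 182 ± 4.63 TPM (SD, n = 3). It was the highest of the 7 in every library, and its coefficient of variation of 2.54% was the smallest among them in these tables. That coefficient was 12.7% with read-based TPM, where H2-M3 had the smallest at 9.68%, and 13.4% with TPM rescaled over nuclear genes of protein-coding and lncRNA type. The antisense gene Gm11131 overlaps its start on the minus strand and had 2.67, 3.49 and 1.99 TPM. Use of strand in the counting is not stated, so reads over that overlap cannot be assigned with certainty.

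H2-T23 (ENSMUSG00000067212.8, chr17:36029773-36032855, minus strand) encodes the heavy chain of Qa-1, the mouse counterpart of human HLA-E, which shows leader peptides of classical class I molecules to the CD94/NKG2 receptors of natural killer cells. It had 144, 158 and 119 TPM, a mean of 140.2 ± 19.5 TPM (SD, n = 3). Replicate 2 was highest and replicate 3 lowest on this scale.

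H2-T22 (ENSMUSG00000056116.18, chr17:36037128-36042747, minus strand) encodes a heavy chain that holds no peptide and is bound directly by a share of mouse gamma delta T cell receptors. It had 121, 126.5 and 94.7 TPM, a mean of 114 ± 16.96 TPM (SD, n = 3). Replicate 3 was again the lowest.

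H2-T24 (ENSMUSG00000053835.17, chr17:36005695-36020560, minus strand) is a further T region gene. It had 122, 98.5 and 90.1 TPM, a mean of 103 ± 16.3 TPM (SD, n = 3). The antisense gene A930015D03Rik overlaps H2-T22, H2-T23 and H2-T24 and was listed at 0 counts in all 3 alignment-based tables, while the read-based tables gave it a mean of 1.89 ± 0.744 TPM (SD, n = 3).

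H2-Q7 (ENSMUSG00000060550.16, chr17:35439155-35443773, plus strand) and H2-Q6 (ENSMUSG00000073409.12, chr17:35424850-35430055, plus strand) are Qa-2 genes, whose best known product is held on the cell surface by a lipid anchor. H2-Q7 had 78.7, 67.6 and 65.4 TPM, a mean of 70.6 ± 7.15 TPM (SD, n = 3). H2-Q6 had 56.4, 39.6 and 43.2 TPM, a mean of 46.4 ± 8.87 TPM (SD, n = 3). H2-Q6 was below H2-Q7 in every library and had the largest coefficient of variation of the 7, at 19.1%. That order is of gene levels, and H2-Q7 has annotated transcripts that retain an intron while H2-Q6 has none. In protein-coding transcripts alone, H2-Q6 had a mean of 46.4 TPM and H2-Q7 of 5.95 TPM.

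H2-M3 (ENSMUSG00000016206.6, chr17:37270220-37274484, plus strand) encodes the heavy chain that presents peptides beginning with N-formyl-methionine, as bacteria and mitochondria make them, to T cells. It had 27.1, 25.03 and 24.3 TPM, a mean of 25.5 ± 1.48 TPM (SD, n = 3). It was the lowest of the 7 in every library in these tables; in the read-based tables H2-M3 was above H2-Q6 in replicate 2, at 45.2 against 39.7 TPM.

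**Figure D1:**
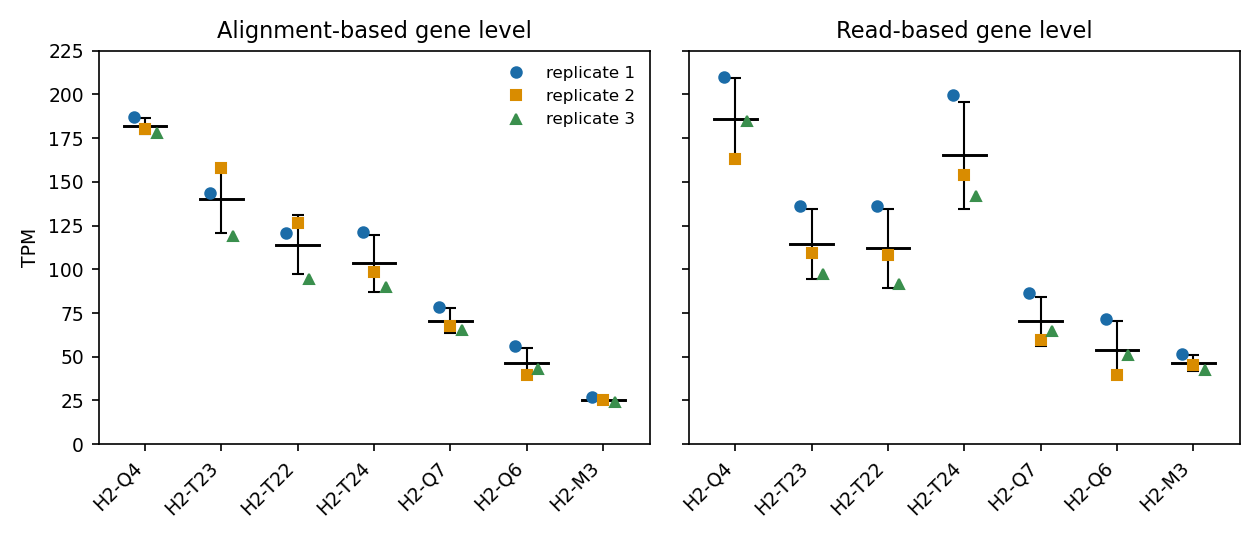
Gene level in TPM (y axis, linear) of the 7 genes in each library, from the alignment-based tables (left) and the read-based tables (right); points are replicates 1 to 3, the horizontal bar is the mean and the whisker the SD. H2-Q4 has the highest and H2-M3 the lowest mean in both panels, and H2-T24 stands at a mean of 165 TPM on the right and of 103 TPM on the left.

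Of the 6 pairs of neighbours in this order, 4 had ranges that did not overlap over the 3 libraries. These were H2-Q4 above H2-T23, H2-T24 above H2-Q7, H2-Q7 above H2-Q6, and H2-Q6 above H2-M3. The differences in log2(TPM + 1), averaged over libraries, were 0.38 ± 0.19, 0.54 ± 0.08, 0.61 ± 0.14 and 0.83 ± 0.20 (SD, n = 3) for these pairs in turn, each of the same sign in 3 of 3 libraries. With read-based TPM, H2-Q6 minus H2-M3 came to 0.18 ± 0.33 and its sign turned in replicate 2. H2-T23 and H2-T22 overlapped in range, although H2-T23 was the higher in 3 of 3 libraries, by 0.30 ± 0.04. H2-T22 and H2-T24 overlapped and differed by 0.14 ± 0.19, with the sign reversed in replicate 1, so their order was not resolved. The exact two-sided sign-flip test over 3 libraries cannot give a p below 0.25, which it gave for 5 pairs (0.5 for H2-T22 and H2-T24; adjusted over the 6 pairs, 0.3 and 0.5), so no pair could be called by that test.

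The levels depended on the quantification, most of all for H2-T24 and H2-M3. In the read-based tables, H2-T24 had 199.9, 154 and 142 TPM, a mean of 165 ± 30.7 TPM (SD, n = 3), which is 1.60 times its alignment-based mean and places it next to H2-Q4. H2-M3 had 51.4, 45.2 and 42.7 TPM there, a mean of 46.4 ± 4.49 TPM, 1.82 times its alignment-based mean. H2-T23 had a read-based mean of 114 ± 20.0 TPM, 0.815 times its alignment-based mean and lower by more than the alignment-based SD. The means of H2-Q4, H2-Q6, H2-Q7 and H2-T22 moved by less than their SD. TPM rescaled over the nuclear genes of protein-coding and lncRNA type raised all 7 means 2.33-fold to 2.37-fold, H2-Q4 to 425 TPM and H2-M3 to 59.7 TPM, with the order kept. In raw terms, the read-based count of H2-M3 was 2.52, 3.57 and 2.88 times the alignment-based count in replicates 1, 2 and 3, against a median over all genes compared of 1.57, 1.85 and 1.67. The corresponding ratios of H2-T23 were 1.30, 1.42 and 1.37, below those medians.

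Sequence shared with relatives bounds how well these genes can be told apart. H2-Q6 and H2-Q7 had 95.4% identical aligned coding bases, the highest value of any pair of the 7, with an unbroken identical run of 265 coding bases. H2-Q4 was 90.2% and 90.8% identical to H2-Q6 and H2-Q7. H2-T24 was the most distant, at 65.2% to 69.6% to the other 6. The 120 coding bases of exon 2 in which H2-Q6 and H2-Q7 differ most are shown because reads over them separate both genes; they hold 14 differences, in capitals (GENCODE M21, mm10, plus strand, coding bases 65 to 184 of H2-Q6-202 at chr17:35425108-35425227 and of H2-Q7-201 at chr17:35439452-35439571).
H2-Q6: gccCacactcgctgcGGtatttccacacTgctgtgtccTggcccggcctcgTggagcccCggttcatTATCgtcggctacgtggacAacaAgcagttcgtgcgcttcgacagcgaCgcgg
H2-Q7: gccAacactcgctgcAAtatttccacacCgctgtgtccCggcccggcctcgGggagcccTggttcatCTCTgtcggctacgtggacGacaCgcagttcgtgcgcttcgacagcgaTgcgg

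Over all annotated transcripts of each gene, 67.4% of the distinct 31-base stretches of H2-T22 also occurred in another annotated gene on either strand, and 47.2% occurred in its near copy H2-T10. The shared part was 53.0% for H2-Q4, 51.8% for H2-Q6, 39.2% for H2-Q7 and 25.8% for H2-T23, and 6.61% for H2-T24 and 4.62% for H2-M3. With stretches of 75 bases, 40.0% of H2-T22 was still shared, and 0.459% of H2-T24 and 0% of H2-M3. Part of this is shared with overlapping antisense genes and not with copies. At 75 bases, A930015D03Rik held 25.2% of the H2-T22 stretches and H2-T10 held 15.7%, and Gm11131 held 13.4% of those of H2-Q4. The values of H2-Q4, H2-Q6, H2-Q7 and H2-T22 are uncertain to the extent that reads were split between genes that share sequence. The posterior SD of the gene count in the alignment-based tables was 0 for H2-T24 and H2-M3 and at most 7.3 counts, for H2-Q7 in replicate 1, where its expected count was 2758. That SD belongs to 1 quantification and does not cover the difference between both. The read-based mean was 1.60 and 1.82 times the alignment-based mean for H2-T24 and H2-M3. For H2-Q4, H2-Q6, H2-Q7, H2-T22 and H2-T23 it was 1.02, 1.17, 0.996, 0.982 and 0.815 times.

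**Figure D2:**
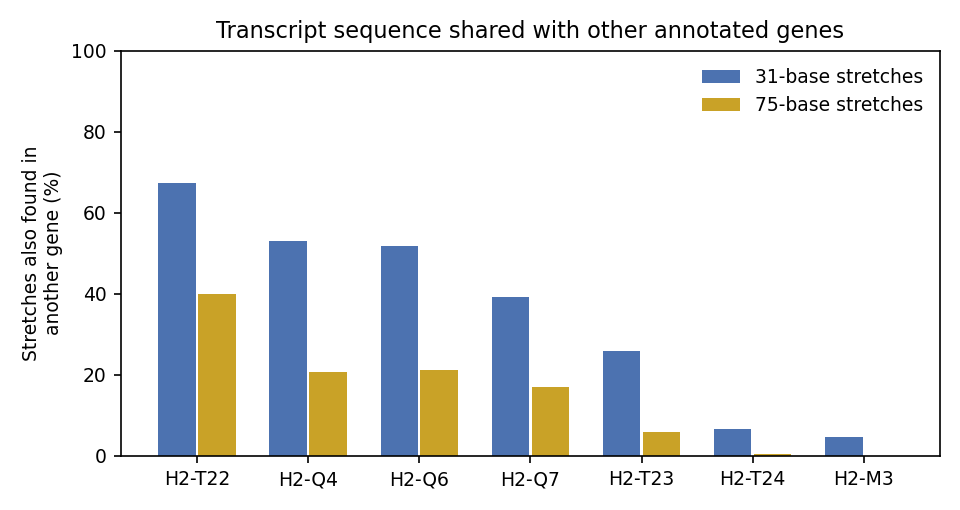
Percent of the distinct 31-base and 75-base stretches of each gene's annotated transcripts (y axis, linear) that also occur in another annotated gene on either strand. H2-T22 shares most at either length, while H2-T24 and H2-M3 share under 7% of their 31-base stretches.

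H2-Q6 made up 41.7%, 36.9% and 39.8% of the summed H2-Q6 and H2-Q7 TPM in replicates 1, 2 and 3 in the alignment-based tables. It made up 45.4%, 40.0% and 43.9% in the read-based tables. The summed level of the pair was 135, 107 and 109 TPM, a mean of 117 ± 15.8 TPM (SD, n = 3), and their summed expected count was 4003, 3821 and 4611.

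The transcript tables divide each gene among annotated transcripts, some of which are typed as retaining an intron. H2-Q7 and H2-T23 were assigned mostly to that type. Retained-intron transcripts took 90.03%, 93.6% and 91.3% of the TPM of H2-Q7 in replicates 1, 2 and 3, a mean of 91.7% ± 1.82 (SD, n = 3). They took 86.1%, 84.6% and 82.4% of H2-T23, a mean of 84.4% ± 1.88. The share was 38.2%, 36.6% and 36.6% for H2-T22, a mean of 37.1% ± 0.905. For H2-Q4 it was 33.6%, 42.9% and 32.3%, a mean of 36.3% ± 5.77, with replicate 2 the highest. H2-Q6, H2-T24 and H2-M3 have no annotated transcript of that type, so for these 3 genes the share is undefined and not a measured absence of introns.

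Among 4428 protein-coding genes at 10 TPM or more that have both a retained-intron and a protein-coding transcript, the median retained-intron share was 49.4% and the middle of the distribution (25th to 75th percentile) ran between 33.8% and 63.9%. H2-Q7 stood at the 98.9th percentile of these genes and H2-T23 at the 96.2nd, while H2-T22 and H2-Q4 stood at the 29.9th and 28.6th. In all, 2 of the 4 genes exceeded 50%, as did 48.7% of the 4428 genes, so the count itself is near the background. For the classical genes, the share was 73.3% for H2-K1 and 22.3% for H2-D1.

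Within H2-Q7, the 4209-base H2-Q7-206 held 64.9% ± 1.75 of the gene's TPM and H2-Q7-205 held 26.7% ± 1.80 (SD, n = 3). H2-Q7-206 has 3 exons and its length equals 91.1% of the gene's span, so it lacks most splicing events of the 7-exon coding transcript H2-Q7-201, which held 5.77% ± 1.76. The read-based tables divided both retained-intron transcripts differently, at 84.4% ± 2.87 and 8.20% ± 1.42, with nearly the same sum of 92.6% ± 1.70.

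Within H2-T23, H2-T23-204 held 55.3% ± 0.495, H2-T23-202 held 21.1% ± 3.16 and the coding H2-T23-201 held 15.6% ± 1.88 (SD, n = 3). H2-T22 was split between the retained-intron H2-T22-204 at 37.1% ± 0.905 and the coding H2-T22-202 at 34.4% ± 0.958 and H2-T22-203 at 27.7% ± 0.947. H2-Q4 was split between the coding H2-Q4-201 at 63.7% ± 5.77 and the retained-intron H2-Q4-202. H2-Q6-202 and H2-M3-201 held their genes' whole TPM, and H2-T24-201 held 94.8% ± 1.61 of H2-T24.

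**Figure D3:**
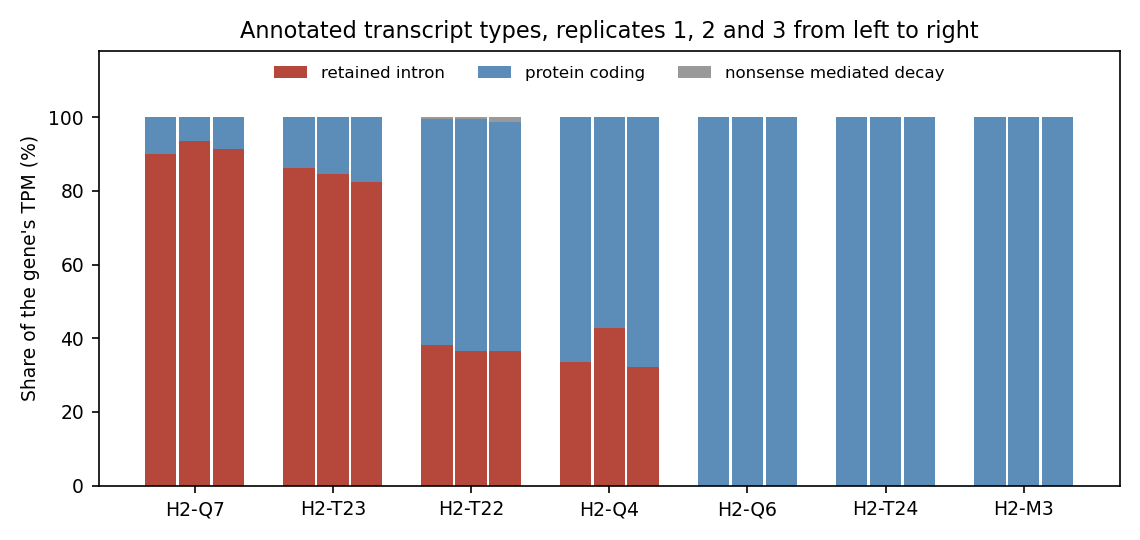
Share of each gene's TPM (y axis, percent, linear) in transcripts typed as retained intron, protein coding or nonsense-mediated decay, with 1 bar per library. Retained-intron transcripts take over 80% of H2-Q7 and H2-T23 in every library and under 43% of H2-T22 and H2-Q4; H2-Q6, H2-T24 and H2-M3 have no such transcript annotated.

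Counting protein-coding transcripts alone gave another order. H2-Q4 was still first, at 124, 103 and 120.5 TPM, and H2-T24 followed with its whole level. H2-T23 came to 19.9, 24.3 and 21.01 TPM, a mean of 21.8 ± 2.28 TPM (SD, n = 3), against 140.2 TPM for the gene. H2-Q7 came to 7.85, 4.31 and 5.68 TPM, a mean of 5.95 ± 1.79 TPM, the lowest of the 7 and below H2-Q6, which keeps its 46.4 TPM because both of its annotated transcripts are coding. The order by coding transcripts, like the order by gene level, therefore sets genes with retained-intron models beside genes without them.

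Set beside the classical class I genes, the 7 genes summed to 735, 695 and 615 TPM in replicates 1, 2 and 3. H2-K1 and H2-D1 together had 1692, 1671 and 1602 TPM. H2-K1 had 1089, 1154 and 1061 TPM and H2-D1 had 604, 516 and 542 TPM, so each of the 7 genes was below both classical genes in every library. The sum of the 7 was 43.4%, 41.6% and 38.4% of the classical sum.

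Of 18 other non-classical H2 genes with a row, 4 averaged 1 TPM or more and 12 had 0 counts in all 3 alignment-based libraries, where a count of 0 allows up to 3 counts, or 0.254, 0.174 and 0.154 CPM (counts scaled to a library sum of 1000000) in replicates 1, 2 and 3 (counting error only). H2-Q5, annotated as a polymorphic pseudogene, was the highest at 200.2, 126 and 155 TPM, a range that overlaps those of H2-Q4, H2-T23 and H2-T22. H2-T10, the relative of H2-T22 that is bound by the same kind of gamma delta receptors, had 20.9, 19.7 and 14.1 TPM. H2-M2 had 5.21, 3.85 and 9.46 TPM. H2-M11, the last in list order of those at 0, had no count. Of those 12 genes, 4 had a level above 0 in the read-based tables, the highest being H2-Q1 at 0.745 ± 0.118 TPM (SD, n = 3), and 8 were at 0 there too.

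**Figure D4:**
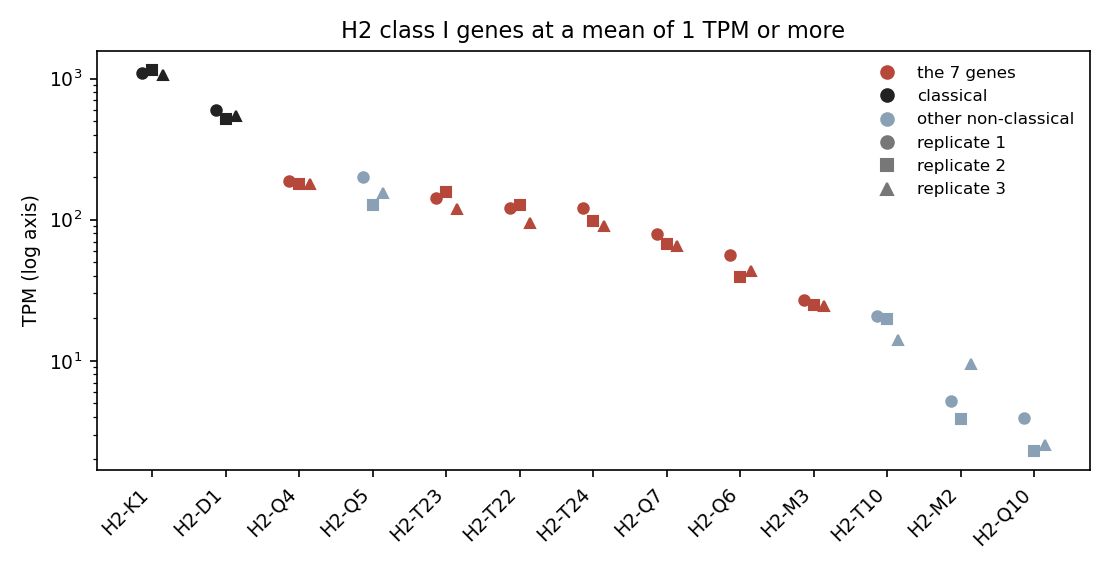
TPM on a log axis for the 13 H2 class I genes that averaged 1 TPM or more, with a point per library. The 7 genes lie between the classical H2-K1 and H2-D1 and the low H2-M2 and H2-Q10, and H2-Q5 lies among them.

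Among 12 class I-like genes outside the H2 region, 3 averaged 10 TPM or more and the median was 2.90 TPM. Ulbp1, a ligand of the activating receptor NKG2D, had 37.8 ± 3.84 TPM (SD, n = 3). Mill2 had 13.3 ± 1.32 TPM, and Cd1d1, which presents lipids to natural killer T cells, had 11.7 ± 1.68 TPM. Azgp1 was listed at 0 in all 3 alignment-based libraries and averaged 3.51 ± 0.744 TPM in the read-based tables.

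All 21 genes of the antigen loading and regulation list reached 1 TPM in each library, 18 averaged 10 TPM or more, and their median was 51.1 TPM. Nlrc5, the transactivator of class I genes, had 460.0, 403 and 333 TPM, a mean of 399 ± 63.5 TPM (SD, n = 3). Irf2 had 162 ± 14.5 TPM and Rfxap, a subunit of the RFX complex, was lowest at 4.48 ± 2.26 TPM. B2m, the light chain gene, named here after its values were seen, had 92.5, 77.9 and 127 TPM, below the summed heavy chains in every library on this chromatin-fraction scale.

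The promoters of 6 of the 7 genes were matched by symbol in the RefSeq table of GRCm38.p6, the same assembly as mm10, with 250 bases before and 50 after the start. They are shown so that the class I promoter motifs named above can be read in each gene; of the 5 motifs searched, the Y core alone stood in all 6. Capitals mark every match, on either strand, of GAAANNGAAA (interferon response core), GGGATTCC (enhancer A core), TGACGC (X2 core), CCAAT (Y core) and TTTCACTT, the last added after the sequences were seen. Positions count from the RefSeq start, the base before it being -1. For H2-T23 the RefSeq start lies 154 bases inside the annotated gene, and 30 bases around its interferon response core are printed. Its Y core, at -52 to -48, lies outside them.
H2-Q4 (-205 to -11, chr17:35379412-35379606, plus strand): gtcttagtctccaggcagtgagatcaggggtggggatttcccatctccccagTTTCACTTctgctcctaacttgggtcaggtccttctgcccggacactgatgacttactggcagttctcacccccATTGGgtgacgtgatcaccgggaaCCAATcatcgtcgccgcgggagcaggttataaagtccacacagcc
H2-Q6 (-205 to -11, chr17:35424645-35424839, plus strand): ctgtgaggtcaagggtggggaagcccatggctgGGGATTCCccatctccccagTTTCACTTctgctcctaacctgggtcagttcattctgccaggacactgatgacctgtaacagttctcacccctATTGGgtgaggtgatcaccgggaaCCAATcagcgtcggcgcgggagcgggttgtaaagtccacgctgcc
H2-Q7 (-205 to -11, chr17:35438950-35439144, plus strand): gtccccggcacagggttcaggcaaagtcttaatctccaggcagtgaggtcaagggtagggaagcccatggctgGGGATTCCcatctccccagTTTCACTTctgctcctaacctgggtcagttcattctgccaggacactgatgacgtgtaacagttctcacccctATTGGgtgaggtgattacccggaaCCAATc
H2-T22 (-205 to -11, chr17:36042753-36042947, minus strand): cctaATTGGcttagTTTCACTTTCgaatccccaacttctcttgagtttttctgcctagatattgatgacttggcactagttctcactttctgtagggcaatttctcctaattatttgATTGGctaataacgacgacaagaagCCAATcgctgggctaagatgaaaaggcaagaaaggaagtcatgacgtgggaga
H2-T23 (-134 to -105, chr17:36032806-36032835, minus strand): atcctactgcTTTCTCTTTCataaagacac
H2-M3 (-205 to -15, chr17:37270029-37270219, plus strand): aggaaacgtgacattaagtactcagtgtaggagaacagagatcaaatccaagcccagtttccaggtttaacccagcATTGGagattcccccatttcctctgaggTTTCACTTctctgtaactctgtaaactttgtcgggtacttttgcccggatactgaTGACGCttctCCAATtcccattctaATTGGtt

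H2-T22 and H2-T23 held the interferon response core, which 3.49% of 27025 promoters of the same length held. In H2-T22 it spans -191 to -182 and overlaps TTTCACTT there. In H2-T23 it spans -124 to -115, which is inside the annotated gene and not upstream of it. H2-Q6 and H2-Q7 held the enhancer A core, at -172 to -165 and at -132 to -125, which 1.07% of promoters held. The same letters stand in H2-K1 and H2-D1. Only exact letters were searched, so a variant of this core is not marked. The H2-Q4 window holds one such variant before TTTCACTT, gggatttcc, which has an added t. Variants in other genes were not searched for. TTTCACTT stood in 5 of the 6, all but H2-T23, and in 1.67% of promoters. These letters were picked after the 6 sequences were seen, so that contrast is not a test. The H2-T23 window starts from a RefSeq start 154 bases inside the annotated gene and so reaches less far upstream of that gene. A match further upstream there was not searched for. The X2 core stood upstream of the start in H2-M3 at -46 to -41, and downstream of it in H2-Q4; 7.50% of promoters held it. The Y core stood in 6 of 6 and in 37.9% of promoters. A match is a description of the letters in this window and not a site of binding.

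Between libraries, the 7 genes were not called more variable than other genes of their level. In edgeR's quasi-likelihood fit of expected counts with Benjamini-Hochberg adjustment, 0 of the 7 passed an adjusted p of 0.05, as did 0 of 14839 genes tested (0% called); 747 genes had an unadjusted p under 0.05. Of the 7, H2-Q6 alone had an unadjusted p under 0.05 (0.0448, adjusted p 0.963 in edgeR), with a quasi-dispersion 6.52 times the trend. H2-T24 followed at 5.23 times the trend (p 0.0647, adjusted 0.992 in edgeR) and H2-Q4 was the least variable at 0.812 times. With 3 libraries the test has little power, since 6.52 times the trend gave an unadjusted p of only 0.0448 in edgeR. The absence of calls therefore does not show that the 7 genes vary little.

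Whether the 7 genes lay on the same side in 1 library depended on the scale. As TMM-normalized CPM, which scale each library by its bulk of genes, all 7 were highest in replicate 1 (5 of 7 with TPM and no further scaling). H2-T23 was close to a tie there, at 233.7 in replicate 1 and 233.4 in replicate 2. On either scale, 6 of 7 were lowest in replicate 3. With read-based TPM all 7 were highest in replicate 1, while 4 of 7 were lowest in replicate 3 and 3 in replicate 2. The share of all genes that were highest or lowest in each library was not counted, so these counts have no background. Replicate 1 over replicate 2, the log2 ratios ran between 0.002 (H2-T23) and 0.74 (H2-Q6) with a median of 0.37, where all genes tested had a median of -0.01 and 49.2% were above 0. Replicate 1 over replicate 3, they ran between 0.30 (H2-Q4) and 0.66 (H2-T24) with a median of 0.50, where all genes tested had a median of -0.01 and 48.9% were above 0. Replicate 2 over replicate 3, 6 of 7 were above 0 with a median of 0.08, where 49.3% of all genes tested were above 0 with a median of -0.01, H2-T23 and H2-T22 leading at 0.44 and 0.40 and H2-Q6 at -0.14.

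With TPM and no further scaling, the median of all genes moved to -0.24, -0.19 and 0.04 for these comparisons in turn. On that scale 5 of 7 were higher in replicate 1 than in replicate 2, as were 27.7% of all genes tested, with H2-T22 at -0.07 and H2-T23 at -0.13, and each of the 7 ratios of replicate 1 over replicate 2 stood above the shifted median. Replicate 1 has the most starting RNA and the fewest counts, and replicate 3 has the stromal marker sum of 584 TPM. The part of these in the ratios was not tested, and with 1 library on each side a ratio has no test.

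**Figure D5:**
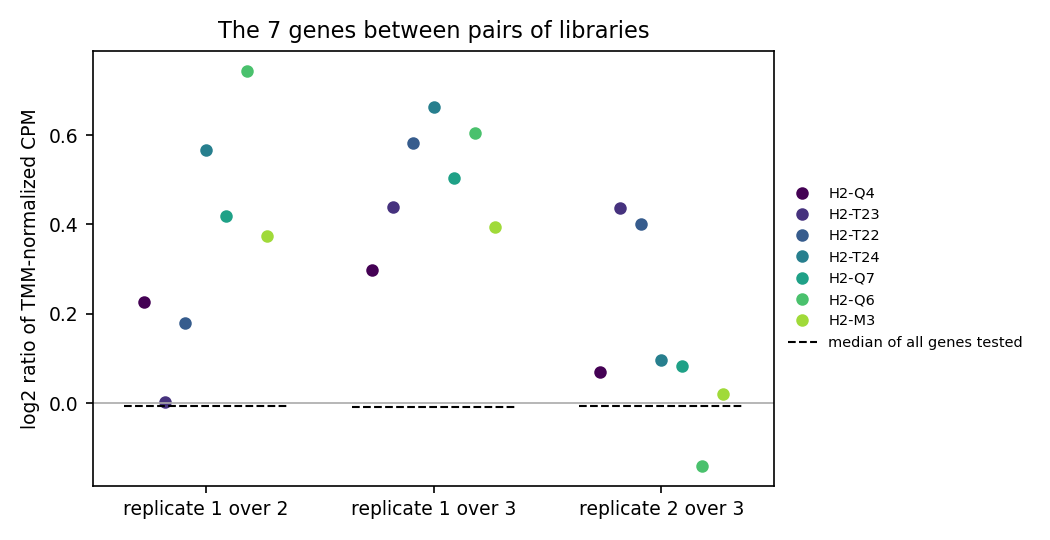
log2 ratio of TMM-normalized CPM (y axis, linear) for each of the 7 genes between pairs of libraries, with the median of all 14839 genes tested as a dashed line. All 7 points lie at or above 0 for replicate 1 over replicates 2 and 3 on this scale, where H2-T22 and H2-T23 fall below 0 over replicate 2 with TPM alone, and H2-Q6 lies at -0.14 for replicate 2 over 3.

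The protein-coding genes whose profile over the 3 libraries was most like the mean profile of the 7 were Psenen, Ncoa1, Fndc3a, Parp14 and Cds1. Their root mean square distances were 0.004 to 0.009 on the log2 scale, over 3 libraries. Of 9659 genes compared, 478 (4.95%) were nearer to that mean than the middle one of the 7, at 0.0899. The mean is made from the 7 genes themselves, which draws them towards it, so this share does not test whether they are alike.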

How the data were processed

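The authors deposited expected counts per gene and transcript, not normalized. The deposited TPM cover each table's full set of rows, tRNA and spike-in rows included. The percent of a gene's abundance per transcript (isoform percent) is also in the deposited transcript tables and was recomputed here from TPM. Per the file headers and README files deposited, these tables come from a transcriptome alignment to mm10 with GENCODE M21, and a further table of estimated counts and TPM from reads and an index. The sources used here give no aligner, version or strand setting.

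All 55536 gene IDs matched GENCODE M21. Rows naming no gene held 1.31%, 0.476% and 0.24% of counts and stayed out of tests. Expected counts were rounded and fitted with edgeR 4.0.16 in R 4.3.3 (filterByExpr, TMM, intercept only), each quasi-dispersion being tested against the trend. This step was tested on simulated data with a smaller spread between libraries than the fit found here. Neighbouring levels used log2(TPM + 1) and an exact sign-flip test. Identity came from global alignment of the coding sequence of the highest coding transcript; shared stretches were 31 or 75 bases. Other steps used Python 3.11.15.

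Named are the 7 genes, the 3 highest and the lowest gene of each list, transcripts with at least 10% of a gene, and the 5 most alike genes with a mean of at least 50 counts. Of the genes this rule picks, 1 is not reported here. The members and lists were chosen with earlier results of these data known. H2-L, H2-Q8, H2-Q9, H2-T9, H2-T13 and H2-T18 had no row under those symbols and were not analysed here. Reads from such genes, if any, could not be assigned to them. Alternatives were the read-based tables, other scalings, filters and pseudocounts, and leaving out each library.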

Additional observations from a re-analysis of the deposited data

How the results depend on the processing

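No paired analysis was possible because the labels give 1 group. The order of the 7 levels held under rescaled TPM, TMM and RLE per kilobase and without each library (7 of 7 in place in each); with read-based TPM, 4 were in place, 2 of 6 neighbouring pairs did not overlap, and H2-T22 minus H2-T24 was -0.56. Leaving out 1 library gave 4 to 5 such pairs. H2-Q6 and H2-Q7 summed would stand at place 3. Of the 7 genes, 0 were called variable by edgeR under every alternative run. Over all genes, edgeR called 49 with no filter on low counts (of 25532), 10 with the read-based counts, and 0 to 73 when 1 library was left out, 73 of them without replicate 3 and 8 without replicate 1. With TPM and no further scaling, replicate 1 over 2 was -0.066 for H2-T22 and -0.13 for H2-T23; with read-based counts, replicate 2 over 3 was -0.014 for H2-Q4. The cause of these changes was not tested. In counts in place of TPM, 3 genes exceeded a 50% retained-intron share, H2-T22 with 52.9%. Read-based TPM put 6 class I-like genes at 10 TPM or more, against 3. Depth limits the H2-Q7 coding transcripts, of which H2-Q7-201 rests on 45.7 to 104 expected counts.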

Other observations

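Some class I relatives, named after their values were seen, differed between quantifications more than any of the 7 genes did. H60b, an NKG2D ligand gene, averaged 29.2 ± 2.61 TPM in the read-based tables and 1.76 ± 0.562 TPM in the alignment-based tables (SD, n = 3 each). H2-Q10, whose transcript shares 22.4% of the 31-base stretches of H2-Q7, averaged 16.3 ± 0.74 TPM in the read-based tables and 2.92 ± 0.891 TPM in the alignment-based tables. H2-Bl averaged 5.83 ± 0.775 TPM in the read-based tables and had 0, 0 and 1 counts in the alignment-based tables. H2-M2 was highest in replicate 3, at 5.21, 3.85 and 9.46 TPM in replicates 1, 2 and 3, while none of the 7 genes was highest there.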
